A study of Homo sapiens with 3 samples.

Results

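The 50 genes described here encode heat shock proteins and other chaperones, and were taken by name from a table of 35851 rows measured in bladder cancer cells. All 50 had 1 row each, and 49 had a mean of at least 1 RPKM (the read count scaled to exonic length and to all assigned reads of the library) over the 3 libraries. Poly(A) RNA had been sequenced from 5637 cells, a human bladder cancer line labelled wild type, after siRNA had been transfected with a lipid reagent; 2 libraries (siMYBL2-1 and siMYBL2-2) had received siRNA directed at MYBL2 and 1 (siNC) a control siRNA. MYBL2 is a transcription factor of the MYB family, and the study set out to find genes that lie downstream of it. The labels give no time after transfection, and do not say whether the endings -1 and -2 mark different siRNA sequences, so both libraries were treated as 2 samples of 1 group. Whether these were separate cultures is not stated, and the p-values therefore rest on a spread that may be purely technical.

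Chaperones bind unfolded or partly folded proteins and help them to fold, assemble or be degraded. In the cytosol the HSP70 ATPases work in cycles with J-domain proteins, which bring substrates and trigger ATP hydrolysis, and with nucleotide exchange factors, while HSP90 finishes the folding of kinases and receptors and the ring-shaped chaperonin TRiC folds actin and tubulin. The endoplasmic reticulum and the mitochondria hold chaperones of their own. HSF1 induces the cytosolic set upon heat and other stress, and the unfolded protein response induces that of the endoplasmic reticulum.

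The libraries held 41818861 (siMYBL2-1), 46177658 (siMYBL2-2) and 40259436 (siNC) assigned reads. MYBL2 was at 46.0 RPKM in siMYBL2-1 and 56.3 RPKM in siMYBL2-2, against 211 RPKM in siNC, which is 21.8% and 26.7% of siNC (limma adjusted p = 0.153). All 9 urothelial and epithelial markers examined were above 1 RPKM in every library, and 6 of 8 markers of other cell types were at most 0.1 RPKM in every library. The exceptions were COL1A1 and ACTA2. COL1A1 was also above 1 RPKM in every library, at 2.03 (siMYBL2-1), 1.31 (siMYBL2-2) and 1.43 RPKM (siNC). ACTA2 was at 0.217, 0.582 and 0.484 RPKM in the same order. Over the 13274 genes tested, the difference between siMYBL2-1 and siMYBL2-2 exceeded the mean change from siNC for 57.0%. The mean change was thus often smaller than the difference within the siMYBL2 group. This rule does not compare the distance of either single library from siNC. In bulk RNA, fewer cells of a type and less RNA per cell cannot be told apart.

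No chaperone gene passed the test of siMYBL2 against siNC. Of 49 genes tested, 0 had an adjusted p under 0.05 by limma, against 0.00753% of all genes tested (1 gene), and 0 had an unadjusted p under 0.05, against 4.71% of all. The adjusted p of all 49 lay between 0.999 and 1.00, and limma-voom on the recovered reads called 0 as well. No member was at least 1.5-fold higher or lower in both siMYBL2 libraries, where 2.6% of all genes tested were higher and 4.11% lower by that rule. The mean log2 changes of the members lay between -0.50 and 0.51, with standard errors of 0.28 to 0.40. For 23 of the 49, the difference between the siMYBL2 libraries exceeded the mean change.

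By direction alone, 26 of the 49 genes were higher than siNC in both siMYBL2 libraries, 11 were lower in both and 12 went in opposite directions. The shares over all genes tested were 29.7%, 36.4% and 33.9%. Both ratios share the single siNC library, so these counts are a description of 3 libraries and not a test. The median log2 change was 0.10 over the chaperone genes (0.08 in siMYBL2-1, 0.21 in siMYBL2-2) and -0.03 over all genes tested. A smaller difference, at least 25% higher or 20% lower than siNC and chosen after the values had been seen, was reached in both libraries by 5 members on the higher side (HSPH1, BAG3, HSPD1, DNAJA3 and DNAJC2), against 8.06% of all genes, and by 2 on the lower side (HSPA4L and CALR), against 11.6%. With each library scaled to its median ratio the number on the higher side was 8, and with genes under 5 RPKM left out the lower side held 1.

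**Figure D1:**
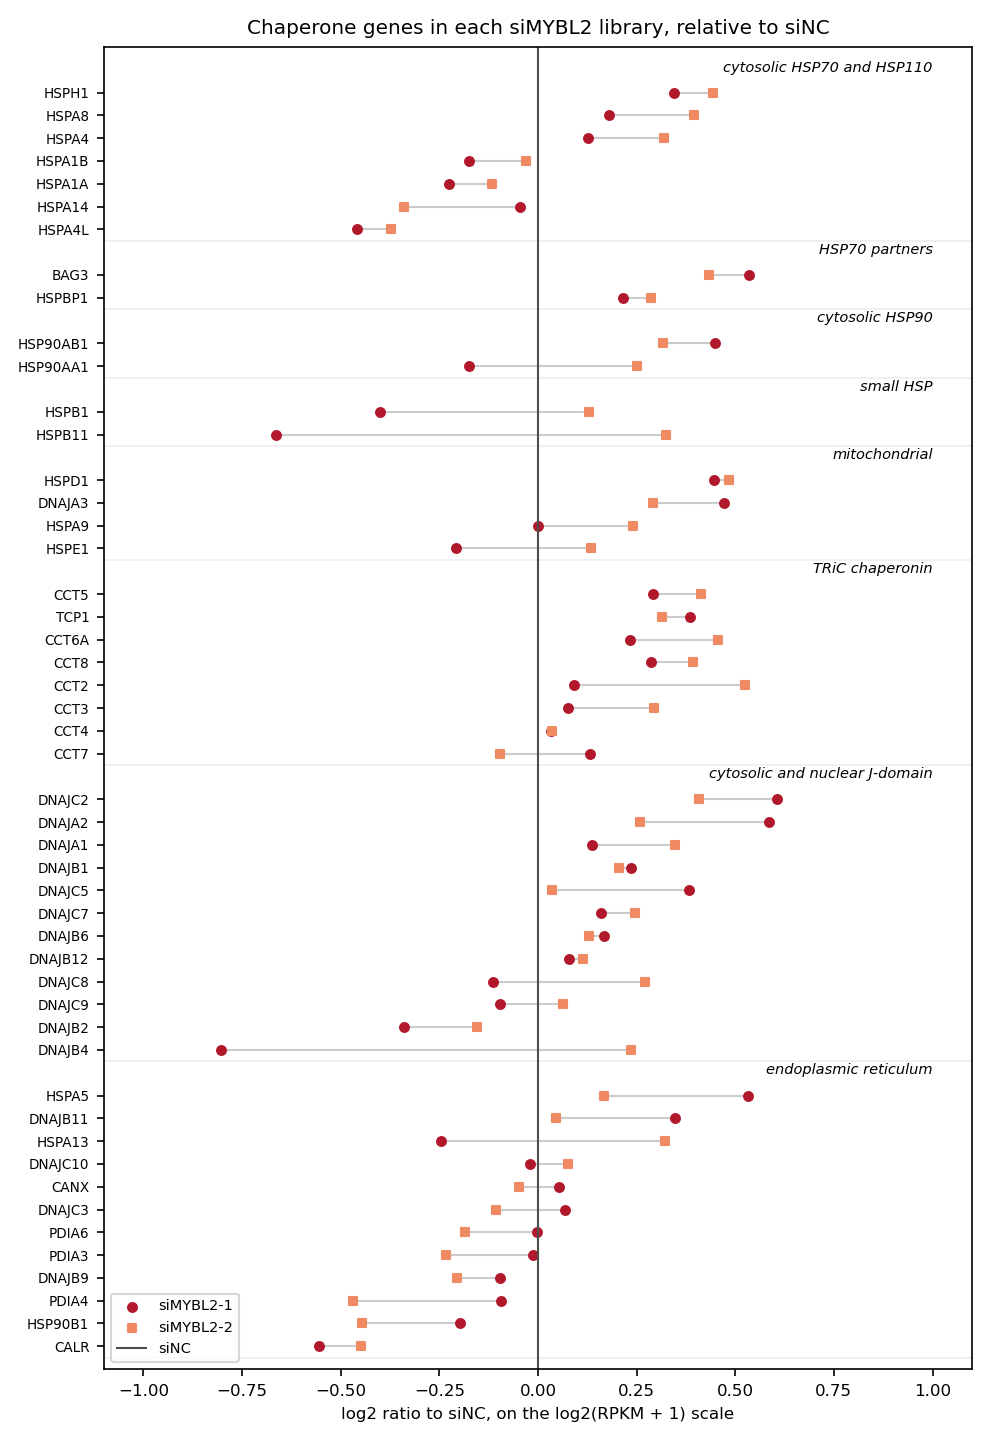
Log2 ratio to siNC of the 49 chaperone genes tested, by role group, with 1 point for siMYBL2-1 (circle) and 1 for siMYBL2-2 (square) joined by a grey line; the vertical line at 0 is the siNC library. TRiC subunits lie on or right of the line with the exception of CCT7 in siMYBL2-2, CALR, HSP90B1 and PDIA4 lie left of it, and DNAJB4 and HSPB11 have the longest lines.

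The chaperone genes together took 4.15% of all assigned reads in siMYBL2-1 and 4.51% in siMYBL2-2, against 4.01% in siNC. Transcripts of the cytosolic HSP90 pair made up 46.0%, 50.1% and 46.7% of these reads in siMYBL2-1, siMYBL2-2 and siNC. The endoplasmic reticulum group was the only role group whose share was lower in both siMYBL2 libraries, at 0.953% and 0.833% of all reads, against 0.990% in siNC. The TRiC subunits took 0.337% and 0.360%, against 0.291% in siNC, and the cytosolic and nuclear J-domain genes 0.420% and 0.457%, against 0.374% in siNC. These shares follow a few abundant genes of each group.

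**Figure D2:**
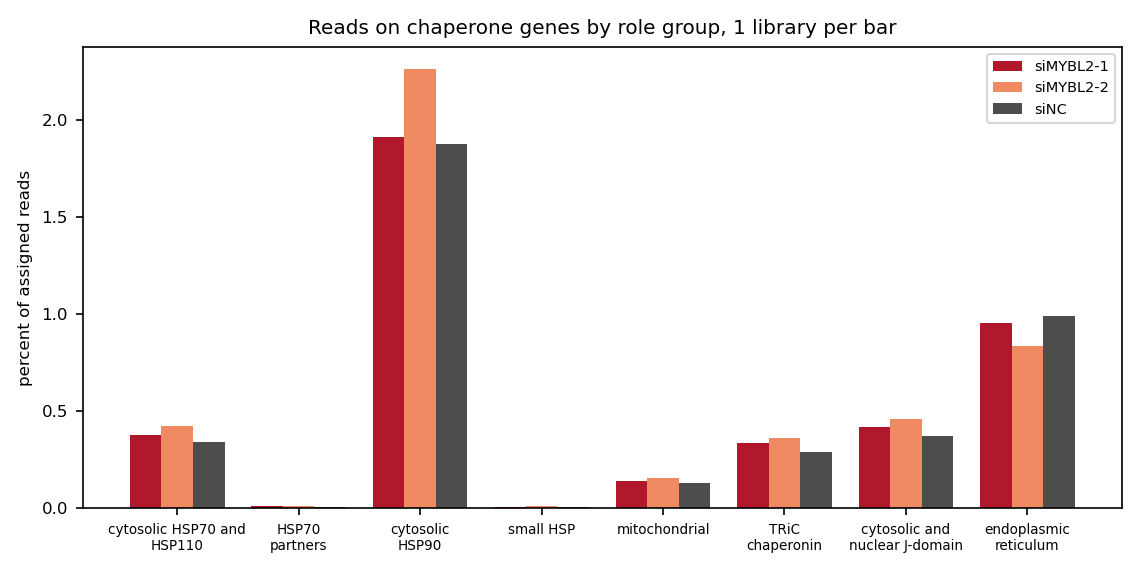
Percent of all assigned reads that fell on each role group of chaperone genes, with 1 bar per library. The cytosolic HSP90 pair takes the most reads, at 1.91%, 2.26% and 1.87% in siMYBL2-1, siMYBL2-2 and siNC, and the endoplasmic reticulum group comes next.

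Of the 7 cytosolic HSP70 and HSP110 genes, 3 were higher in both siMYBL2 libraries (HSPA8, HSPH1 and HSPA4) and 4 were lower in both (HSPA1A, HSPA1B, HSPA14 and HSPA4L). HSPA8, the constitutive HSP70 (HSC70), was at 364 RPKM in siMYBL2-1 and 423 RPKM in siMYBL2-2, against 321 RPKM in siNC. HSPH1, an HSP110 protein that exchanges nucleotide on HSP70, was at 124 and 132 RPKM, against 97.1 RPKM in siNC, a mean of 128 ± 6.18 RPKM in the siMYBL2 group (SD, n = 2). Both siMYBL2 values thus lay above siNC, 1.27 times as high (95% counting interval 1.26 to 1.29) and 1.36 times (1.34 to 1.38), yet limma gave a log2 change of 0.39 with an SE of 0.29 and an adjusted p of 0.999.

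HSPA4, a further HSP110 protein, was at 64.5 and 73.8 RPKM, against 58.9 RPKM in siNC. Its relative HSPA4L went the other way, at 4.22 RPKM in siMYBL2-1 and 4.54 RPKM in siMYBL2-2, against 6.18 RPKM in siNC, with a log2 change of -0.42 (SE 0.28). HSPA14, an HSP70-like protein of the ribosome, was at 5.35 and 4.18 RPKM, against 5.56 RPKM in siNC, and only the siMYBL2-2 value lay clearly below the control (0.752-fold, counting interval 0.684 to 0.826).

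The stress-inducible genes HSPA1A and HSPA1B encode nearly identical proteins and have RefSeq start sites 12195 bases apart on chromosome 6, so reads could be split between them. HSPA1B (31827735 to 31830255, plus strand, hg38) was at 182 RPKM in siMYBL2-1 and 201 RPKM in siMYBL2-2, against 205 RPKM in siNC. HSPA1A (31815464 to 31817946) was at 35.8 and 38.8 RPKM, against 42.1 RPKM in siNC. HSPA1B stood 5.07, 5.19 and 4.88 times as high as HSPA1A in siMYBL2-1, siMYBL2-2 and siNC, so their proportion was nearly the same in the 3 libraries.

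Heat shock elements, the sites that HSF1 binds, are arrays of the unit GAA in alternating orientation. Promoter windows of 250 bases before to 50 bases after the start (RefSeq, GRCh38.p14) were found for 46 of the 50 genes, and those of HSPA14, HSPB11, CCT6A and PDIA3 were not used. Searched on both strands, GAANNTTCNNGAA (3 units) was present in 3 of the 46 and in 0.487% of 27305 promoters. GAANNTTC or TTCNNGAA (2 units), which the longer motif contains, was present in 10 of the 46 and in 13.7% of all. The HSPA8 windows around its matches of 3 units and the HSPA1A and HSPA1B stretches around their matches of 2 units are shown, since these genes with the element went in different directions. All 29 bases of each HSPA8 window lie within the deposited exon intervals, although they precede the RefSeq start. The HSPA1A and HSPA1B stretches hold 0 exonic bases. Capitals mark the motif.
HSPA8 (chr11:123062346-123062374, minus strand): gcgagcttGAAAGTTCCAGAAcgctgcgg
HSPA8 (chr11:123062171-123062199, minus strand): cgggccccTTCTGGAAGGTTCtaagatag
HSPA1A (chr6:31815383-31815463, plus strand): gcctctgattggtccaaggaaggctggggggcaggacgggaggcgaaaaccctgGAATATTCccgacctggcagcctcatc
HSPA1B (chr6:31827578-31827658, plus strand): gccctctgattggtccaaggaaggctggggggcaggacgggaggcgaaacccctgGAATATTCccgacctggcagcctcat

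The HSPA1A and HSPA1B stretches of 81 bases each align with 79 identical bases, 1 mismatch and 2 gap positions, and each holds the 2-unit motif once. HSPA8, DNAJA1 and DNAJB6, the members with 3 units, were higher in both siMYBL2 libraries, with log2 changes of 0.29, 0.24 and 0.15 that did not pass limma. Of the 9 tested members with 2 units, 6 were higher in both, 2 lower in both and 1 opposite. A match is a description of the letters and not a measured binding site. The MYB core TAACGG or CAACGG was present in 3 of the 46 (HSPA1A, DNAJA1 and HSPA13) and in 8.71% of all promoters, and these 3 genes were lower in both, higher in both and opposite. Also searched were TTTGAA, present in 3 of the 46 and in 15.4% of all, and CCAAT, in 19 of the 46 and in 35.7% of all. Of the genes with TTTGAA, 1 was higher in both and 2 lower in both. Of those with CCAAT, 9 were higher in both, 6 lower in both and 4 opposite.

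Genes for the HSP70 exchange factors BAG3 and HSPBP1 were both higher in the siMYBL2 libraries. BAG3 (chromosome 10, 119651370 to 119677819, plus strand), which couples HSP70 to small heat shock proteins and to selective autophagy, was at 33.3 RPKM in siMYBL2-1 and 31.0 RPKM in siMYBL2-2, against 22.7 RPKM in siNC. The ratios to siNC were 1.47 and 1.37, from 3827, 3933 and 2509 reads in siMYBL2-1, siMYBL2-2 and siNC, and the log2 change was 0.48 (SE 0.29). HSPBP1 was at 8.90 and 9.39 RPKM, against 7.52 RPKM in siNC.

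The cytosolic HSP90 genes were the most abundant members and differed from each other in how the libraries were ordered. HSP90AB1, the constitutive form, was at 2413 RPKM in siMYBL2-1 and 2205 RPKM in siMYBL2-2, against 1768 RPKM in siNC, with a log2 change of 0.38 (SE 0.29). HSP90AA1, the inducible form, was at 2273 and 3055 RPKM, against 2569 RPKM in siNC, so its siMYBL2 values lay on both sides of the control. The ratio of HSP90AB1 to HSP90AA1 was 1.06 in siMYBL2-1 and 0.722 in siMYBL2-2, against 0.688 in siNC, and HSP90AB1 was the higher of both in siMYBL2-1 alone. Among all rows of the table HSP90AA1 ranked 19, 13 and 18, and HSP90AB1 17, 20 and 26, in siMYBL2-1, siMYBL2-2 and siNC. Pseudogene rows named after them held at most 0.472% of the reads of their parent gene.

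The small heat shock protein genes showed no shared direction. HSPB1 (HSP27), which holds unfolded proteins without using ATP, was at 23.9 RPKM in siMYBL2-1 and 35.0 RPKM in siMYBL2-2, against 31.9 RPKM in siNC. HSPB11, which despite its name is known as a subunit of intraflagellar transport, was at 6.59 and 14.0 RPKM, against 11.0 RPKM in siNC. The siMYBL2 libraries thus lay on either side of siNC for both genes, and HSPB11 was 2.13-fold higher in siMYBL2-2 than in siMYBL2-1. HSPB8, the partner of BAG3, had 10 reads (0.0836 RPKM) in siMYBL2-1 and 0 reads in siMYBL2-2, against 0 reads in siNC, where counts of 0 allow up to 0.0227 and 0.0261 RPKM (3 reads, counting error only). HSPB8 was not tested.

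In the mitochondrial group, the gene for the large chaperonin subunit was higher in both siMYBL2 libraries and that for its small partner was not. HSPD1 (HSP60; chromosome 2, 197486581 to 197516737, minus strand) was at 125 RPKM in siMYBL2-1 and 128 RPKM in siMYBL2-2, against 91.4 RPKM in siNC, a mean of 127 ± 2.22 RPKM in the siMYBL2 group (SD, n = 2). The siMYBL2 values were close to each other and 1.37-fold and 1.40-fold above siNC, with a log2 change of 0.47 (SE 0.29). HSPE1 (HSP10), which caps the HSP60 ring, was at 122 and 155 RPKM, against 141 RPKM in siNC. The ratio of HSPD1 to HSPE1 was 1.02 and 0.826, against 0.647 in siNC.

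These genes lie head to head on chromosome 2, with 104 bases between their RefSeq start sites (197500274 for HSPD1 and 197500379 for HSPE1). The HSPE1 row shares bases with the read-through row HSPE1-MOB4, and 76.1% of its exonic bases are in no other row. HSPE1-MOB4 was listed with 10054 reads in siMYBL2-1 and 14165 in siMYBL2-2, against 11327 in siNC, nearly the same numbers as the 10100, 14162 and 11241 reads of HSPE1 in the same libraries. Since the handling of shared reads is not given, the level of HSPE1 is uncertain.

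HSPA9 (mortalin), the mitochondrial HSP70 that pulls proteins through the inner membrane, was at 124 RPKM in siMYBL2-1 and 146 RPKM in siMYBL2-2, against 124 RPKM in siNC, so that siMYBL2-1 equalled siNC within counting error. Its J-domain partner DNAJA3 was at 5.51 and 4.74 RPKM, against 3.69 RPKM in siNC, a log2 change of 0.38 (SE 0.29). Both siMYBL2 values of DNAJA3 lay above siNC.

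Subunits of the chaperonin TRiC were higher in both siMYBL2 libraries in 7 of 8 cases, against 29.7% of all genes tested. CCT7 went in opposite directions, and CCT4, among the 7, equalled siNC within its counting intervals. The median log2 change of the 8 subunits was 0.32 (0.18 in siMYBL2-1 and 0.35 in siMYBL2-2). After quantile normalization 6 of 8 were higher in both. TRiC is a double ring in which each of the 8 different subunits occupies 1 place per ring. CCT5 was at 172 RPKM in siMYBL2-1 and 188 RPKM in siMYBL2-2, against 141 RPKM in siNC. CCT8 was at 154 and 166 RPKM, against 126 RPKM in siNC, and CCT3 at 149 and 174 RPKM, against 142 RPKM in siNC. These abundant subunits were all higher in siMYBL2-2 than in siMYBL2-1.

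Among the less abundant subunits, TCP1 was at 62.8 RPKM in siMYBL2-1 and 59.7 RPKM in siMYBL2-2, against 47.8 RPKM in siNC, and CCT2 at 29.7 and 40.6 RPKM, against 27.9 RPKM in siNC. CCT6A was at 58.7 and 68.7 RPKM, against 49.8 RPKM in siNC. CCT4 was nearly level, at 45.1 and 45.2 RPKM, against 44.1 RPKM in siNC, and both counting intervals of its ratio held 1. CCT7 was at 128 RPKM in siMYBL2-1 and 109 RPKM in siMYBL2-2, against 117 RPKM in siNC. The log2 changes of the 8 subunits lay between 0.02 and 0.35, with the changes of CCT4 and CCT7 the smallest.

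The mRNA levels of the subunits were unequal. The highest subunit stood 5.79 times above the lowest in siMYBL2-1 and 4.62 times in siMYBL2-2, against 5.08 times in siNC. CCT5 shares bases with a row known only by a clone name, and 69.9% of its exonic bases are in no other row, the lowest share among the members. That other row held at most 749 reads in any library, and CCT5 at least 33044. In all, 8 of the 50 members have under 90% of their exonic bases to themselves: CCT5, DNAJC9, PDIA6, HSPE1, DNAJB11, PDIA3, CCT4 and TCP1.

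**Figure D3:**
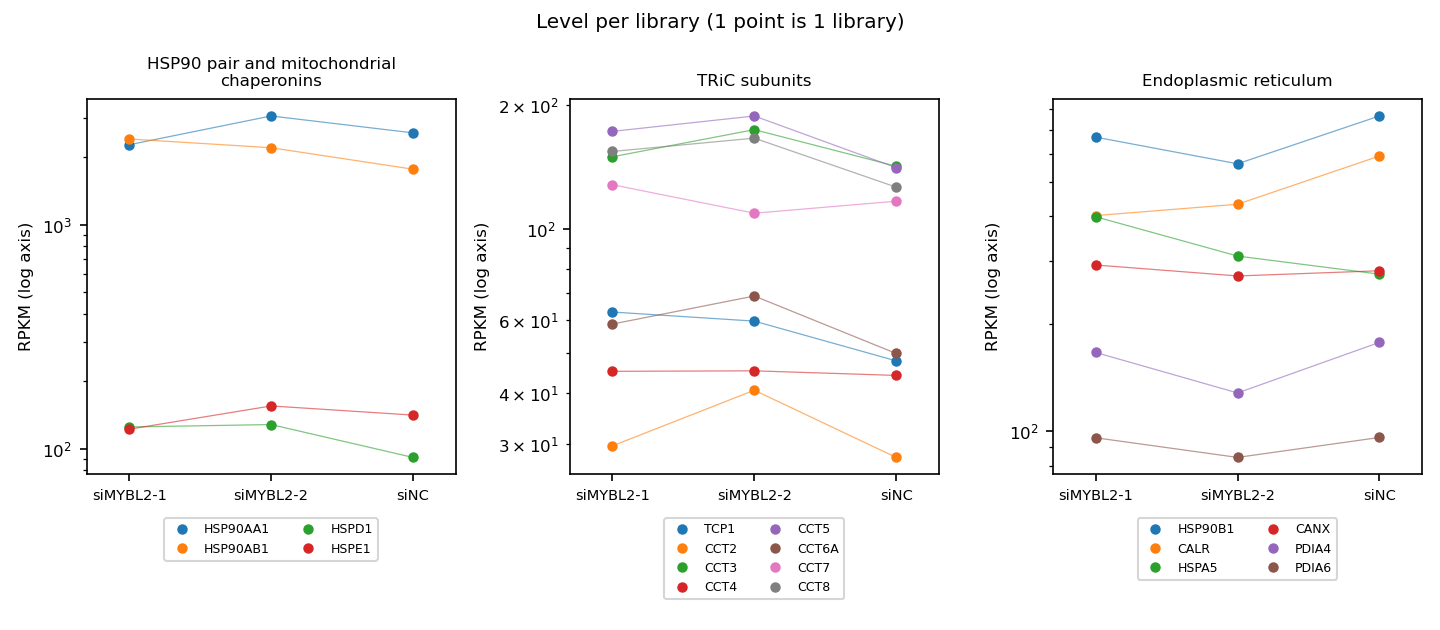
RPKM on a log axis in siMYBL2-1, siMYBL2-2 and siNC for the cytosolic HSP90 and mitochondrial chaperonin genes, the TRiC subunits and 6 abundant genes of the endoplasmic reticulum, with 1 point per library and lines that join the values of 1 gene. HSP90AB1 and HSPD1 are higher in both siMYBL2 libraries than in siNC, and HSP90B1 and CALR are lower while HSPA5 is higher.

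Genes for J-domain proteins of the cytosol and nucleus were higher in both siMYBL2 libraries in 8 of 12 cases, lower in both in 1 and opposite in 3. Over all genes tested the shares were 29.7%, 36.4% and 33.9% in the same order. DNAJC2 (chromosome 7, 103312474 to 103344873, minus strand), which works with HSPA14 on nascent chains at the ribosome, had the highest change of all 49 members. It was at 72.1 RPKM in siMYBL2-1 and 62.8 RPKM in siMYBL2-2, against 47.1 RPKM in siNC, from 19791, 19037 and 12439 reads, so that its ratios to siNC were 1.53 and 1.33. Its log2 change of 0.51 (SE 0.29) came with a limma adjusted p of 0.999. Its partner HSPA14 was lower in both libraries, but clearly so only in siMYBL2-2, as given above.

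DNAJA2, a type I co-chaperone of HSC70, was at 41.2 and 32.7 RPKM, against 27.2 RPKM in siNC, and DNAJA1, the most abundant of these genes, at 632 and 732 RPKM, against 575 RPKM in siNC. DNAJB1 (HSP40), a stress-inducible partner of HSP70, was at 27.7 and 27.1 RPKM, against 23.4 RPKM in siNC. The siMYBL2 values of these 3 genes lay above siNC in both libraries. DNAJC7, which hands substrates between HSP70 and HSP90, DNAJB6, which keeps polyglutamine proteins from aggregating, DNAJB12, which is anchored in the membrane of the endoplasmic reticulum, and DNAJC5, the cysteine string protein of secretory vesicles, were also higher in both, with ratios between 1.03 and 1.34.

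DNAJB4 and DNAJB2 had the lowest changes of this group. DNAJB4, a type II co-chaperone of HSP70, was at 3.44 RPKM in siMYBL2-1 and 8.12 RPKM in siMYBL2-2, against 6.75 RPKM in siNC, so that it was 2.36-fold higher in siMYBL2-2 than in siMYBL2-1, the largest difference between the siMYBL2 libraries among the 49. HSPB11, DNAJB4 and HSPA13 were the members at least 1.5-fold apart between siMYBL2-1 and siMYBL2-2, 3 of 49, against 22.0% of all genes tested. DNAJB2, which directs HSP70 clients to the proteasome, was at 1.59 and 1.95 RPKM, against 2.28 RPKM in siNC. DNAJC9, a histone chaperone, was at 42.1 and 47.1 RPKM, against 45.0 RPKM in siNC, and DNAJC8, a protein of the spliceosome, at 156 and 204 RPKM, against 169 RPKM in siNC.

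The endoplasmic reticulum group held 6 of the 11 lower members. Of its 12 genes, 6 lay below siNC in both siMYBL2 libraries, against 36.4% of all genes tested. A further 2 lay above siNC in both, against 29.7% of all, and 4 had values on both sides. With either other scaling between libraries 4 lay below in both (CALR, HSP90B1, PDIA4 and DNAJB9), out of 9 lower members, as many as among the cytosolic HSP70 and HSP110 genes. These 4 of 12 are close to the 36.4% of all genes tested, a share taken as deposited. The larger number of lower genes in this group thus depended on the scaling. PDIA3 and PDIA6 dropped out, and as deposited both equalled siNC within their counting intervals in siMYBL2-1. The same held in siMYBL2-1 for DNAJB9, which stayed among the 4, at 0.919 times siNC (counting interval 0.803 to 1.053). CALR (calreticulin; chromosome 19, 12938578 to 12944489, plus strand), a calcium-binding lectin that retains glycoproteins until they are folded, had the lowest change of the 49 members. It was at 402 RPKM in siMYBL2-1 and 433 RPKM in siMYBL2-2, against 591 RPKM in siNC, which is 0.681 times (counting interval 0.672 to 0.689) and 0.732 times (0.724 to 0.741) siNC, and limma put its log2 change at -0.50 with an SE of 0.29 and an adjusted p of 0.999.

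HSP90B1 (GRP94), the HSP90 of this compartment, was at 668 and 562 RPKM, against 766 RPKM in siNC, and the disulfide isomerase gene PDIA4 at 166 and 128 RPKM, against 177 RPKM in siNC. PDIA3, which acts with the lectin chaperones, was at 95.0 and 81.3 RPKM, against 95.8 RPKM in siNC, and PDIA6, a further disulfide isomerase, at 95.7 and 84.3 RPKM, against 95.9 RPKM in siNC. The values of PDIA4, PDIA3 and PDIA6 in siMYBL2-1 were 0.937, 0.991 and 0.998 times siNC, and those in siMYBL2-2 were 0.721, 0.848 and 0.879 times siNC. CANX, the membrane-bound relative of CALR, was at 292 and 272 RPKM, against 282 RPKM in siNC.

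HSPA5 (BiP, chromosome 9, 125234853 to 125241330, minus strand) is the HSP70 of the endoplasmic reticulum and sensor of unfolded proteins. With DNAJB11, it was 1 of the 2 genes of this group that lay above siNC in both siMYBL2 libraries. It was at 399 RPKM in siMYBL2-1 and 310 RPKM in siMYBL2-2, against 276 RPKM in siNC, which is 1.45 times (counting interval 1.43 to 1.47) and 1.12 times (1.11 to 1.14) siNC, and its log2 change was 0.35 (SE 0.30). The ratio of HSPA5 to CALR was 0.992 and 0.716, against 0.466 in siNC, and that of HSPA5 to HSP90B1 was 0.598 and 0.551, against 0.360 in siNC. HSPA5 had the highest log2 change of this group, and CALR and HSP90B1 had the lowest. Ratios between them restate these changes and are not a separate result. DNAJB11, the J-domain partner of HSPA5, was at 72.4 and 58.6 RPKM, against 56.7 RPKM in siNC. The other J-domain genes DNAJC3 (12.0 and 10.5 RPKM, against 11.4 RPKM in siNC), DNAJB9 (3.57 and 3.24 RPKM, against 3.89 RPKM in siNC) and DNAJC10 (3.82 and 4.15 RPKM, against 3.89 RPKM in siNC) had ratios to siNC between 0.833 and 1.07, and HSPA13, a truncated HSP70, was at 1.46 and 2.65 RPKM, against 1.92 RPKM in siNC.

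The endoplasmic reticulum stress element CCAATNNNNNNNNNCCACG, the site through which ATF6 acts in the unfolded protein response, was found on either strand in 4 of the 46 promoters (HSPA5, HSP90B1, CALR and CANX) and in 0.0806% of all. The related element known as ERSE-II was in 0 of the 46 and in 0.0549% of all. The windows are shown because these genes share the element and their transcripts took different directions. All 29 bases of the CANX window and of each HSP90B1 window lie within the deposited exon intervals. The HSPA5 and CALR stretches hold 0 exonic bases. Capitals mark the element, which reads in the reverse direction in CALR and in the second match of HSP90B1.
HSPA5 (chr9:125241344-125241593, minus strand): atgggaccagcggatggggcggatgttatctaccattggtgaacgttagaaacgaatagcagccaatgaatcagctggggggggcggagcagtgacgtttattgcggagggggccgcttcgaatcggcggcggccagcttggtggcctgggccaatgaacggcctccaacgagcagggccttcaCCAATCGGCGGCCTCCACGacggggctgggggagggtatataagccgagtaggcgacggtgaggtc
CALR (chr19:12938359-12938577, plus strand): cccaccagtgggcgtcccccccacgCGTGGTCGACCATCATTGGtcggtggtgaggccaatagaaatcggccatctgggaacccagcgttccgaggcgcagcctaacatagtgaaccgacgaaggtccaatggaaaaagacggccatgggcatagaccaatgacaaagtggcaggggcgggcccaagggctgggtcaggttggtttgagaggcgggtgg
HSP90B1 (chr12:103930211-103930239, plus strand): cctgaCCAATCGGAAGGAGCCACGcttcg
HSP90B1 (chr12:103930316-103930344, plus strand): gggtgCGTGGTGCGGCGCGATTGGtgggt
CANX (chr5:179698773-179698801, plus strand): cccggCCAATCTTCACACTCCACGaagaa

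The exact element begins at base -66 from the HSPA5 start and at base -225 from that of CALR. Of these 4 genes, HSPA5 was higher in both siMYBL2 libraries, HSP90B1 and CALR were lower in both, and CANX was opposite. Genes that hold the element were thus found in each direction.

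Genes of the surrounding pathways were examined in 8 related lists, of which 126 genes were tested, and 0 passed limma. An unadjusted p under 0.05 was found for 2 of the 126 (GRPEL1 and HSPA6), against 4.71% of all genes tested. HSPA6 had a mean of 1.03 RPKM, barely above the filter of 1 RPKM. Of the 126, 49 were higher in both siMYBL2 libraries, 28 were lower in both and 49 opposite, with a median log2 change of 0.06. Over all genes tested, 29.7% were higher in both, 36.4% lower in both and 33.9% opposite. As for the chaperone genes, the counts per list are a description and not a test. Among co-chaperones of HSP70 and HSP90, 17 of 26 were higher in both and 5 lower in both (median 0.18). PPID, a cyclophilin that binds HSP90, was at 72.2 and 69.8 RPKM, against 51.1 RPKM in siNC, and the immunophilin FKBP4 at 79.3 and 59.3 RPKM, against 50.3 RPKM in siNC. FKBP8, a membrane-anchored immunophilin, was at 47.2 and 59.3 RPKM, against 73.0 RPKM in siNC, and AHSA2P, listed as AHSA2, at 5.18 and 4.65 RPKM, against 6.94 RPKM in siNC.

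Mitochondrial import and proteostasis genes were higher in both siMYBL2 libraries in 17 of 22 cases and lower in both in 3 (median 0.20). Over all genes tested 29.7% were higher in both and 36.4% lower in both. Some of the 17, such as TOMM70 and TRAP1 in siMYBL2-2, equalled siNC within their counting intervals. GRPEL1, the nucleotide exchange factor of HSPA9, was at 35.7 RPKM in siMYBL2-1 and 28.1 RPKM in siMYBL2-2, against 15.8 RPKM in siNC. Both values were well above siNC, 2.27-fold and 1.78-fold, and the log2 change of 0.96 (SE 0.30) exceeded that of every member; it had an unadjusted p of 0.00922 and a limma adjusted p of 0.691. TIMM44, which tethers HSPA9 to the import channel, was at 26.3 and 17.4 RPKM, against 14.8 RPKM in siNC. The lowest of this list were TIMM17B (9.78 and 9.23 RPKM, against 11.7 RPKM in siNC) and LONP1 (49.8 and 47.8 RPKM, against 51.6 RPKM in siNC).

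Heat shock regulators showed no common direction, with 6 of 15 higher in both, 4 lower in both and a median of -0.01. HSF1, the main regulator of heat shock genes, was at 5.65 and 5.27 RPKM, against 4.39 RPKM in siNC, and HSF2 at 5.93 and 6.36 RPKM, against 6.79 RPKM in siNC. HSPA6, a strictly inducible HSP70, was at 1.74 RPKM in siMYBL2-1 and 0.922 RPKM in siMYBL2-2, against 0.419 RPKM (40 reads) in siNC. It was 4.16-fold and 2.20-fold above siNC at this low level, with an unadjusted p of 0.0474 and a limma adjusted p of 0.999. Its mean over the 3 libraries was 1.03 RPKM, and only the siMYBL2-1 value was above 1 RPKM. The filter on mean RPKM thus kept HSPA6 through the library where it was highest, and its p-value is not free of that choice. UBB, a polyubiquitin gene and the lowest of this list, was at 156 and 220 RPKM, against 209 RPKM in siNC.

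Of the unfolded protein response genes, 4 of 21 were higher in both, 4 lower in both and 13 opposite (median 0.02). XBP1, a transcription factor of this response, was at 49.1 and 50.0 RPKM, against 37.8 RPKM in siNC, and SYVN1, a ubiquitin ligase of protein degradation in this compartment, at 9.92 and 11.0 RPKM, against 7.52 RPKM in siNC. DDIT4 was at 32.9 and 30.4 RPKM, against 46.5 RPKM in siNC, and EIF2AK3 (PERK) at 2.94 and 3.03 RPKM, against 4.42 RPKM in siNC. ATF4 (86.8 and 69.2 RPKM, against 72.7 RPKM in siNC) and DDIT3 (5.80 and 8.07 RPKM, against 6.02 RPKM in siNC) had siMYBL2 values on both sides of the control.

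Of the disulfide formation and glycoprotein folding genes, 3 of 21 were higher in both, 8 lower in both and 10 opposite (median -0.06). The 8 lower genes are close to the 36.4% of all genes tested that were lower in both. The lowest were TXNDC12 (4.98 and 4.80 RPKM, against 6.75 RPKM in siNC) and UGGT2 (3.87 and 4.42 RPKM, against 5.61 RPKM in siNC). The highest were TXNDC5 (19.7 and 14.1 RPKM, against 13.9 RPKM in siNC; 39.4% of its exonic bases are in no other row) and ERO1A, the oxidase that reoxidises protein disulfide isomerase (2450 reads in siMYBL2-1 and 1534 in siMYBL2-2, against 1497 in siNC; RPKM ratios to siNC of 1.58 and 0.893). In the prefoldin and TRiC partner list 3 of 12 were higher in both, 2 lower in both and 7 opposite. PFDN2 was at 913 and 775 RPKM, against 697 RPKM in siNC, PDCD5 at 61.1 and 75.0 RPKM, against 55.1 RPKM in siNC, PDCL at 26.0 and 35.8 RPKM, against 40.2 RPKM in siNC, and UXT at 13.5 and 16.2 RPKM, against 19.2 RPKM in siNC.

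Other J-domain genes, outside the 50, were mostly opposite (9 of 15), with 4 higher in both and 2 lower in both. DNAJC11, a protein of the mitochondrial membrane complex that shapes cristae, was at 40.9 and 40.3 RPKM, against 29.0 RPKM in siNC, and DNAJC25 at 36.9 and 23.7 RPKM, against 21.7 RPKM in siNC. DNAJB5 was at 0.885 and 1.45 RPKM, against 1.51 RPKM in siNC, and DNAJC22 at 0.850 and 1.48 RPKM, against 1.41 RPKM in siNC. The other HSP70 and small heat shock genes had 3 tested members, HSPA6, TRAP1 (25.2 and 19.4 RPKM, against 18.8 RPKM in siNC) and HYOU1 (44.5 and 38.5 RPKM, against 40.8 RPKM in siNC).

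**Figure D4:**
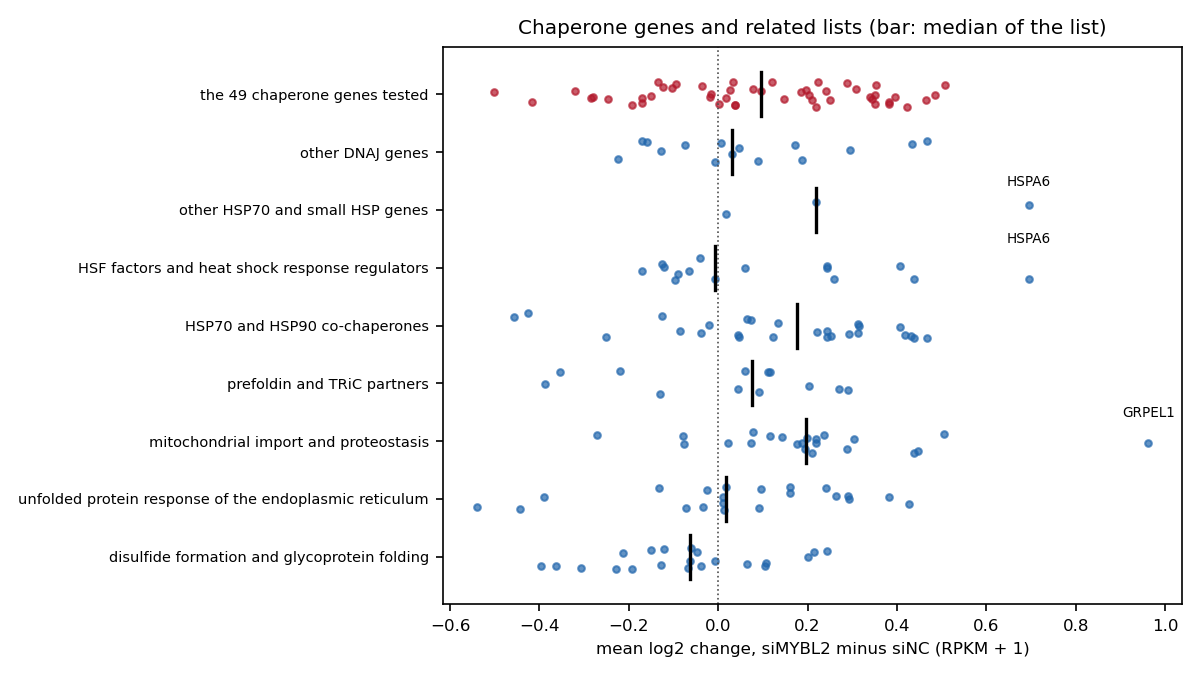
Mean log2 change, siMYBL2 minus siNC, of each gene tested in the chaperone set (red, top) and in 8 related lists (blue), with a vertical bar at the median of each list. GRPEL1 at 0.96 and HSPA6 at 0.69, which is in 2 lists, lie right of all other points, and the medians run from -0.06 to 0.22. The mean of HSPA6 was 1.03 RPKM, barely above the filter of 1 RPKM.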

How the data were processed

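RPKM per gene is the deposited unit: the authors gave 1 table with exon intervals and lengths, per the file headers, on hg38. The submitters' processing notes name cutadapt 1.9, HISAT2 2.0.4 and StringTie 1.3.4d. The library kit marks strand with dUTP, per the labels' protocols; how reads were counted, on which strand and against which annotation is not given in the sources used here. RPKM times length gave whole reads for 100% of values (tolerance 0.001 reads). Counting intervals are exact conditional binomial at 95% and cover counting error only.

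Log2(RPKM + 1) was fitted with limma-trend (limma 3.58.1, R 4.3.3) over the 13274 genes that averaged 1 RPKM or more, with Benjamini-Hochberg adjustment over all of them. Log2 changes use that scale, which understates low genes; folds are plain RPKM ratios. The fit has 1 residual degree of freedom and takes siNC to vary like the siMYBL2 pair.

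Alternatives were other pseudocounts, filters, scalings and moderation, limma-voom, and leaving out a library. Members and lists were chosen with earlier results of these data known. Values in every library were due for members 1.5-fold from siNC in both siMYBL2 libraries or 1.5-fold apart between them, the 5 most abundant, the ends of each role group, the TRiC subunits and 3 fixed pairs, and for the 2 highest and 2 lowest genes of each related list with HSF1, ATF4, XBP1 and DDIT3; other members were added after their values were seen. Own exonic bases are those in no other row.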

Additional observations from a re-analysis of the deposited data

How the results depend on the processing

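No member passed limma under any of the 7 other settings that leave a test, where the smallest adjusted p of a member was 0.675 (no filter on low values). The counts of 26 members higher and 11 lower in both siMYBL2 libraries became 25 to 27 and 8 to 11 with another pseudocount, filter or scaling, and 22 and 9 among the 41 tested members with at least 90% own exonic bases, an alternative chosen after seeing the data. Leaving out 1 siMYBL2 library, the members lower than siNC numbered 14 (without siMYBL2-1) to 20 (without siMYBL2-2), those higher 35 and 29, the median log2 change was 0.21 and 0.076, and 0 and 4 members were at least 1.5-fold from siNC, since 1 library is then asked to pass and not 2. The sign of the mean change turned with median ratio scaling for HSPE1 (0.0021), DNAJC9 (0.021) and DNAJC3 (0.018), and with quantile normalization for CANX (-0.048); the cause was not tested, and all 4 lie near 0. The counting intervals of 40 members in siMYBL2-1 and 47 in siMYBL2-2 leave out a ratio of 1. These intervals cover counting error only, and the same share over all genes tested is not given. They are therefore not counts of changed genes, and limma called 0 of the 49. No paired analysis was possible because siNC has a single library. With 1 control library, a deviation of that library and a change in both siMYBL2 libraries cannot be told apart.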
